A study of Rattus norvegicus with 6 samples.

Results

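The genes described here encode potassium channels, voltage-gated calcium and sodium channels, their auxiliary subunits, and the TRPM channels of beta cells. They were chosen by name: all listed genes whose symbol begins with Kcn, subunit letters and a number, all numbered Cacna, Cacnb, Cacng and Scn genes, and Abcc8, Trpm2, Trpm4 and Trpm5. Abcc9 is also named in that rule, has no row among those read here and was not analysed here. The rule found 111 of the 19289 listed features, and it used no measured value. Messenger RNA had been sequenced from INS-1E, a rat insulinoma line that secretes insulin, in 3 untreated libraries and 3 libraries from cells exposed to uric acid during 24 hours. The labels give no uric acid concentration and no vehicle for the untreated cells. They do not say whether the libraries of a group came from separate cultures, so the spread behind the p-values is that of these libraries and may be technical. All 6 libraries come from the same cell line.

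In a beta cell, glucose metabolism closes the ATP-sensitive potassium (KATP) channel, the membrane depolarises, and voltage-gated calcium channels open. The calcium that enters triggers the release of insulin granules. Voltage-gated and calcium-activated potassium channels then repolarise the membrane, and auxiliary subunits set how many channels reach the surface and how they gate. KATP channels are built from a pore-forming inward rectifier, Kcnj11, and a sulfonylurea receptor, Abcc8.

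Summed estimated counts were 47858248 to 59092982 in the untreated libraries and 41191819 to 48875962 in the uric acid libraries. At 75 bases a count, a full pair of reads would add up to 4 counts. Features with a mean of at least 1 FPKM (fragments per kilobase of transcript, scaled to library depth) over the 6 libraries were tested with edgeR, and 57 of the 111 channel genes passed that filter. The other 54 had means between 0.00191 and 0.873 FPKM. The line's identity was read from fixed markers. The 10 listed beta-cell secretory genes summed to 75100 to 89000 FPKM in the untreated and 73700 to 86000 FPKM in the uric acid libraries, and 1 of them, the transcription factor gene Mafa, was called, lower with uric acid (-0.46 on the log2 scale, edgeR adjusted p = 0.0129). Listed markers of acinar cells summed to 8.23 to 10.4 and 8.05 to 13 FPKM, those of fibroblasts and endothelium to 2.29 to 3.25 and 2.39 to 3.13 FPKM, and those of immune cells to 0.637 to 1.68 and 0.707 to 2.34 FPKM. Genes of other islet hormone cells summed to 6 to 10.5 and 8.06 to 11 FPKM, mostly glucagon (Gcg). The duct list summed to 189 to 193 and 171 to 184 FPKM, nearly all of it the keratin Krt7, while Krt19 was listed at 0 in 5 of the 6 libraries. The neuron and glia list summed to 96 to 96.9 and 87.3 to 93.4 FPKM, and its highest members, Snap25 and Syn1, also serve exocytosis in beta cells. For the duct and the neuron and glia lists every uric acid library lay below every untreated one, no gene of these other-cell lists was called, and their part in the channel results was not tested.

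Channel genes with high and with very low messages stood side by side in most families. Kcnj11 had the highest mean, 139 FPKM over the 6 libraries, followed by the calcium channel beta subunit Cacnb3 at 134 FPKM and Abcc8 at 70.9 FPKM. These 3 genes held 38.9 to 42.2% of the summed FPKM of all 111 in each library. In all, 22 channel genes had a mean of at least 10 FPKM, and 23 had a mean under 0.1 FPKM.

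**Figure D1:**
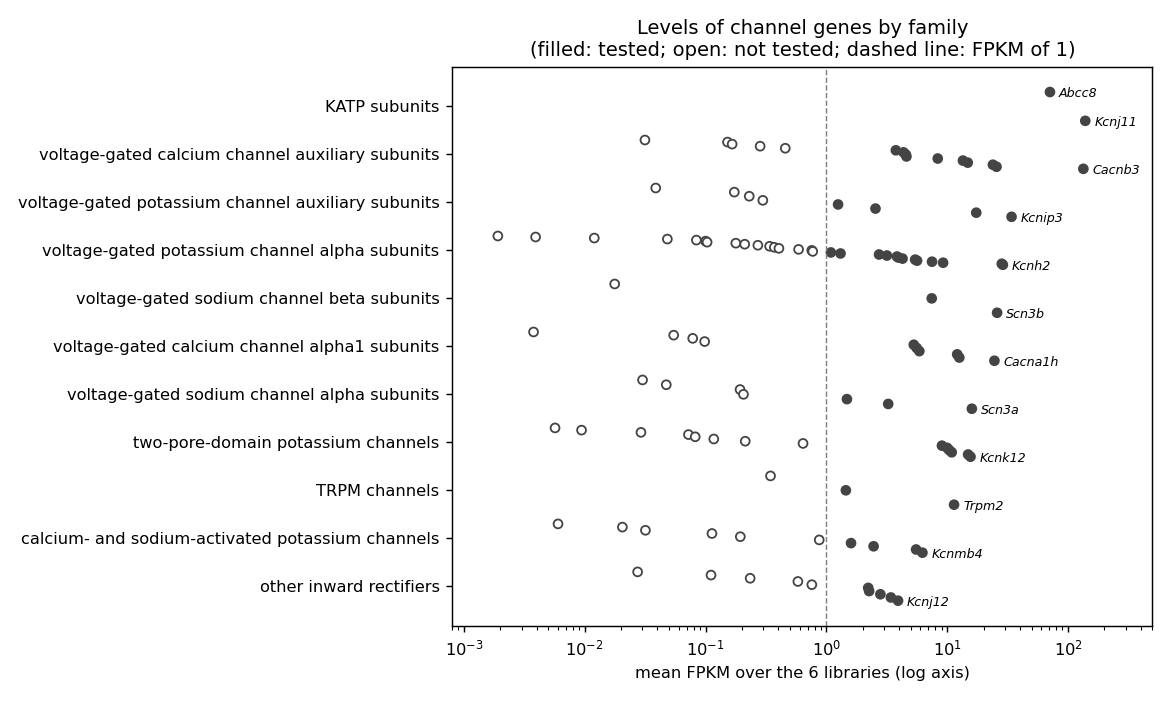
Mean FPKM over the 6 libraries (log axis) of the 111 channel genes, 1 point per gene, by family; filled points passed the filter of 1 FPKM (dashed line) and open points did not. Kcnj11 (139) and Cacnb3 (134) are the highest, and the best measured gene of each family is named, with both KATP subunits.

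Few of the tested channel messages were called different with uric acid, and no tested one had a fitted difference as large as 2-fold. At the threshold of 0.05 on the two-sided p, adjusted across the whole tested table by the Benjamini-Hochberg method, Kcnip1, Cacnb2 and Kcnh2 were higher and Kcnd3 and Kcnh1 lower, 5 of the 57 tested channel genes or 8.77%. Over all 12460 tested features 7.98% were called, 4.99% higher and 2.99% lower, against 5.26% and 3.51% of the channel genes. The share among channel genes was thus near that of all features. An unadjusted p under 0.05 was reached by 17 channel genes, 29.8%, and by 25.7% of all tested features. The median log2 fold change was -0.03 for the 57 genes and 0.00 for all tested features, and the median absolute value was 0.17 and 0.16. The FPKM groups did not overlap for 11 channel genes that were higher and 8 that were lower with uric acid, 19.3% and 14% of those tested, beside 16.8% and 14.2% of all tested features. Of the 54 genes below the filter, 2 had higher and 7 had lower FPKM with uric acid without overlap between the groups, all at means under 1 FPKM. The share among all features below the filter was not worked out, so these counts have nothing to be set against. Kcna3, a Kv1 channel gene named after its values were seen, stood at 0.376 ± 0.0452 and 0.165 ± 0.0273 FPKM, a larger ratio than any of the tested channel genes had. Kcns1 and Kcns2, at means of 0.084 and 0.103 FPKM, had larger ratios still. No gene below the filter was called when it was loosened.

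**Figure D2:**
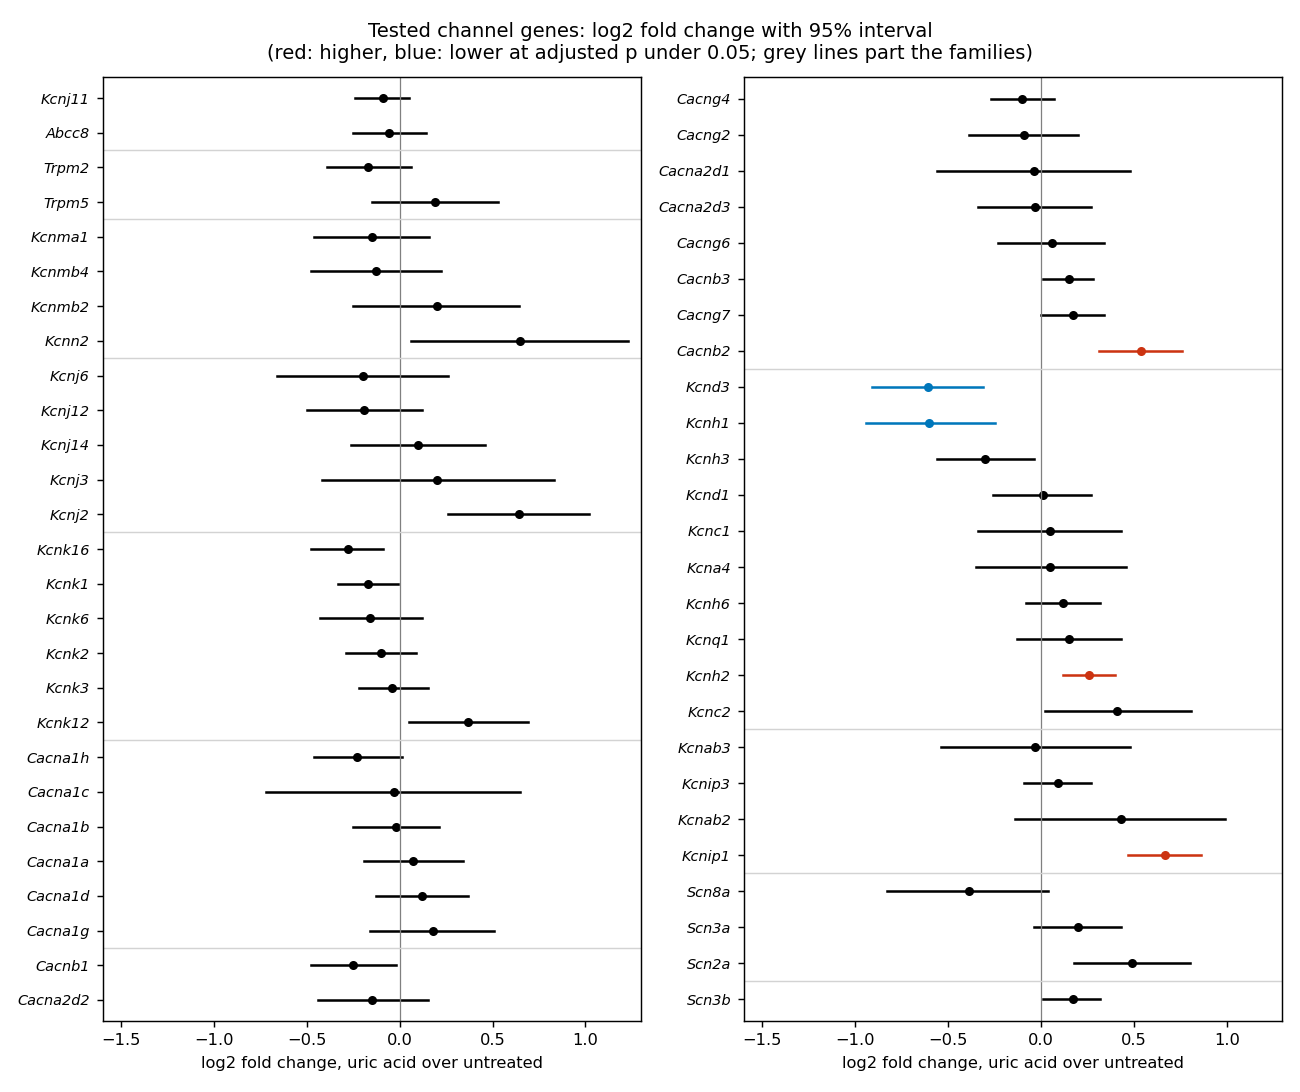
Log2 fold change of uric acid over untreated (x axis) with its 95% interval for 53 of the 57 tested channel genes, grouped by family. The red genes Kcnip1, Cacnb2 and Kcnh2 and the blue genes Kcnd3 and Kcnh1 passed the threshold, and no point lies beyond 1 in either direction.

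Neither KATP subunit passed the test. Kcnj11 stood at 145, 140 and 147 FPKM in untreated libraries 1, 2 and 3 and at 129, 140 and 137 FPKM in uric acid libraries 1, 2 and 3. The uric acid values all lay below the untreated ones, though untreated library 2 and uric acid library 2 were nearly level. Its log2 fold change was -0.09 ± 0.06 (standard error), a change of -6.35% with a 95% interval from -15.1 to 3.31% (adjusted p = 0.379). Abcc8, which carries the nucleotide sensor and binds sulfonylurea drugs, stood at 77.3, 69.1 and 70.4 FPKM untreated and at 66.5, 64.1 and 78 FPKM with uric acid. Uric acid library 3 was above every untreated library and the other two were below, so the groups overlapped. The log2 fold change was -0.06 ± 0.09, or -3.81% with an interval from -15.8 to 9.94% (adjusted p = 0.72). In FPKM, which is per length, Kcnj11 was 1.88, 2.03 and 2.09 times Abcc8 without uric acid and 1.93, 2.18 and 1.75 times with it. These ratios overlapped. Abcc8 is the longer message (4749 against 3034 bases). In each group the ratio was lowest in the library where long messages stood highest, a trend described below. In 18 alternative fits the Kcnj11 value ranged from -0.12 to -0.05 and the Abcc8 value from -0.14 to -0.00, and neither was called in any. Both genes lie on the minus strand of chromosome 1 in the deposited coordinates, whose genome build the sources used here do not give: Kcnj11 (ENSRNOG00000021128) from 102103094 to 102106127 and Abcc8 (ENSRNOG00000021130) from 102110708 to 102191287, 4580 bases apart. In bulk libraries, fewer cells of a kind and less message per cell cannot be told apart, here as in every value below.

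Kcnip1 had the clearest difference of the channel genes. It encodes a calcium-binding protein that joins Kv4 potassium channels, raises their surface number and slows their inactivation. It stood at 14.7, 13.1 and 12.6 FPKM untreated and at 21.5, 20.6 and 22.1 FPKM with uric acid, with a wide gap between the groups. That is 13.5 ± 1.11 against 21.4 ± 0.742 FPKM (mean ± SD, n = 3 libraries per group), a 1.59-fold rise with a log2 fold change of 0.67 ± 0.09 (edgeR adjusted p = 0.00289). It passed in all 18 alternative fits, with adjusted p from 5.16e-09 to 0.0293. Its relative Kcnip3, a multifunctional calcium sensor with the highest level of this family, stood at 33 ± 1.27 and 35.1 ± 3.06 FPKM (0.09 ± 0.08, adjusted p = 0.524). The ratio of Kcnip1 to Kcnip3 was 0.465, 0.394 and 0.369 untreated and 0.6, 0.648 and 0.584 with uric acid, with no overlap. Kcnip2 and Kcnip4 were at means of 0.0387 and 0.23 FPKM and were not tested.

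The Kv4 pore-forming genes did not follow Kcnip1. Kcnd3 fell from 1.65, 1.55 and 1.55 FPKM to 0.94, 1.18 and 0.985 FPKM, and all uric acid libraries lay below all untreated ones. The log2 fold change was -0.61 ± 0.14 (edgeR adjusted p = 0.0285), from a level just above the filter. With limma on log2(FPKM + 1) the value was -0.34 and missed the threshold (adjusted p = 0.111). With limma on log2(FPKM + 0.1) it was -0.57 and also missed the threshold (adjusted p = 0.119). Without untreated library 1, 2 or 3 the adjusted p was 0.0938, 0.106 or 0.0719, and without uric acid library 1 or 3 it was 0.11 or 0.052, so that with 1 library left out the call held only without uric acid library 2. Kcnd1, the other listed Kv4 gene, stood at 3.82 ± 0.241 and 3.85 ± 0.377 FPKM (0.01 ± 0.12, 95% interval from -0.26 to 0.27, adjusted p = 0.976).

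Among the ether-a-go-go family of voltage-gated potassium channels, Kcnh2 was higher and Kcnh1 lower. Kcnh2, whose channel (ERG) repolarises heart and endocrine cells, had 27.2, 25.7 and 25.9 FPKM untreated and 32.1, 32 and 30.4 FPKM with uric acid. The groups were apart, by a 1.2-fold rise (0.26 ± 0.06, edgeR adjusted p = 0.034). The call was lost without untreated library 1 (0.0738), 2 (0.169) or 3 (0.0885), without uric acid library 1 (0.118) or 2 (0.0575), and with no filter on low values (0.0569). Kcnh6, a close relative at a like level, stood at 27.1 ± 1.44 and 29.5 ± 3.11 FPKM (0.12 ± 0.09, adjusted p = 0.422). Kcnh1, which encodes the EAG channel, had 3.56, 3.7 and 2.61 FPKM untreated and 2.47, 2.01 and 2.04 FPKM with uric acid. Untreated library 3 was the lowest of its group and close to uric acid library 1. The log2 fold change was -0.60 ± 0.15 (edgeR adjusted p = 0.0467), the weakest of the 5 calls. It was lost without untreated library 1 (0.15) or 2 (0.189), without uric acid library 1 (0.0874), 2 (0.0848) or 3 (0.0832), with limma (0.0985) and with a filter of 0.1 FPKM (0.0523). Kcnh3, an ELK channel gene, stood at 5.99 ± 0.628 and 4.87 ± 0.359 FPKM (-0.30 ± 0.11, adjusted p = 0.139), and it overlaps the tested genes Spats2 and U1 on the same strand, so its reads may be shared with them.

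**Figure D3:**
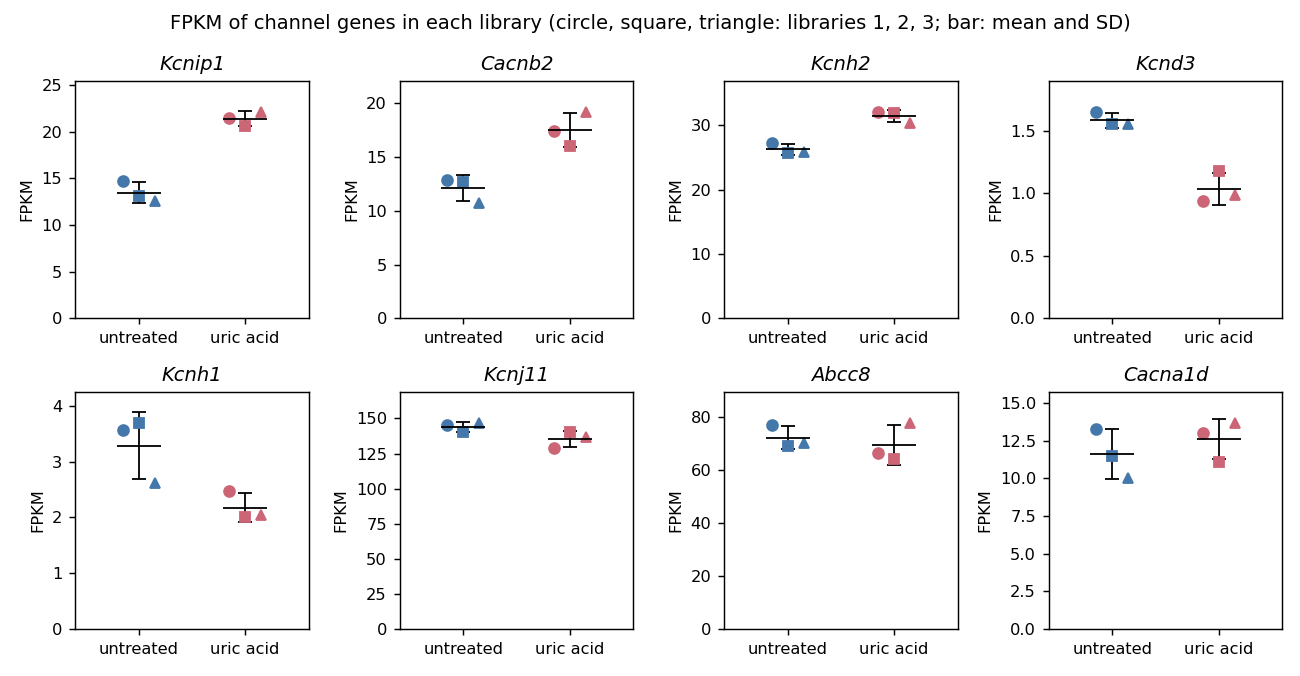
FPKM of the 5 called channel genes, both KATP subunits and Cacna1d in each library (y axes start at 0), with the mean and SD of each group. The groups are apart for Kcnip1, Cacnb2, Kcnh2, Kcnd3, Kcnh1 and narrowly Kcnj11, and they overlap for Abcc8 and Cacna1d.

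Cacnb2 was the only calcium channel gene called in the edgeR fit as reported. Beta subunits bind the pore-forming subunit inside the cell, carry it to the membrane and shift its opening. Cacnb2 stood at 12.9, 12.7 and 10.7 FPKM untreated and at 17.4, 16 and 19.2 FPKM with uric acid. Every uric acid library was above every untreated one, a 1.45-fold rise (0.54 ± 0.10, edgeR adjusted p = 0.0155). The call was lost without untreated library 2 (0.0684) or 3 (0.0518) or uric acid library 1 (0.0635). Cacnb3, which made up 83.5 to 86.9% of the summed beta subunit FPKM in every library, stood at 127 ± 3.16 and 141 ± 4.84 FPKM (0.15 ± 0.06, adjusted p = 0.176), and Cacnb1 at 9.06 ± 0.422 and 7.63 ± 0.856 FPKM (-0.25 ± 0.10, adjusted p = 0.161). The Cacnb2 share of beta subunit FPKM was 8.57, 8.72 and 7.18% untreated and 10.9, 9.47 and 11.4% with uric acid. Cacnb4 had a mean of 0.166 FPKM and was not tested.

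Because the 5 calls rest on message levels, the annotated starts of the called genes are shown for their base composition. RefSeq windows of build GRCr8, from 250 bases before to 50 bases after an annotated gene start, were listed for 73 of the 111 channel genes and for 4 of the 5 called ones; Kcnh2 had no entry. In the deposited coordinates, which are not stated to be those of GRCr8, the 5 genes span chromosome 10 from 18558128 to 18942540 (Kcnip1, minus strand), chromosome 17 from 81798756 to 82017682 (Cacnb2), chromosome 4 from 7355574 to 7387253 (Kcnh2), chromosome 2 from 207923775 to 208140727 (Kcnd3) and chromosome 13 from 110920737 to 111232269 (Kcnh1), the last 4 on the plus strand. Kcnip1 and Cacnb2 each have windows at more than 1 annotated start, and the RNA data do not show which start was used. The windows lie at chr10:19092976-19093275 and chr10:18940760-18941059 on the minus strand for Kcnip1. They lie at chr17:82472965-82473264 and chr17:82596542-82596841 for Cacnb2, at chr2:195626066-195626365 for Kcnd3 and at chr13:106252966-106253265 for Kcnh1, all on the plus strand. Capitals mark matches, on either strand, to the TATA box TATAAA, to CCAAT, to the GC box GGGCGG, to the cAMP response element core TGACG or to the C/EBP-ATF response element TGATGNAA.
Kcnip1, first window: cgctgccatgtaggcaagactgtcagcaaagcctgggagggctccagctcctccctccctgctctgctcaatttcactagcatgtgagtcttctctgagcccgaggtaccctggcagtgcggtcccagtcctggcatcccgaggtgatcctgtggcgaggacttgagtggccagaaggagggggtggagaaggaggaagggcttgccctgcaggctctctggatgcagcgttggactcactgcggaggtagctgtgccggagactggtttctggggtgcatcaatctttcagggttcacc
Kcnip1, second window: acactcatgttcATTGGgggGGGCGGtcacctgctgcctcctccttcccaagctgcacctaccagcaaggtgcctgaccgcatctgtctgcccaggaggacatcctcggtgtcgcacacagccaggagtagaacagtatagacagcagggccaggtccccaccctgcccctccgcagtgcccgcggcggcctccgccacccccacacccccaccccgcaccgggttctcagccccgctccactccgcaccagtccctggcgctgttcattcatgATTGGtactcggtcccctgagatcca
Cacnb2, first window: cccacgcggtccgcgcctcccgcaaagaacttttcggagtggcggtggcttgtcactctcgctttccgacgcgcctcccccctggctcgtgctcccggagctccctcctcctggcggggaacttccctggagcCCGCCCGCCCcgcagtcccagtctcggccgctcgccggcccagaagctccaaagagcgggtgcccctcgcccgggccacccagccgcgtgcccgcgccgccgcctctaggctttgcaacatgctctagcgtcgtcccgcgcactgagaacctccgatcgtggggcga
Cacnb2, second window: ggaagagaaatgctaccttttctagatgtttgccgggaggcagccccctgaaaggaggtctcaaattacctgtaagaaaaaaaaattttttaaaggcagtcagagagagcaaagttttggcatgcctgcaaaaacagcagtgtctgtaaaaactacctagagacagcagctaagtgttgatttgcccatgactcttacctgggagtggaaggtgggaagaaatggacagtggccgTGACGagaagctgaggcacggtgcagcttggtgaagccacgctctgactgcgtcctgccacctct
Kcnd3: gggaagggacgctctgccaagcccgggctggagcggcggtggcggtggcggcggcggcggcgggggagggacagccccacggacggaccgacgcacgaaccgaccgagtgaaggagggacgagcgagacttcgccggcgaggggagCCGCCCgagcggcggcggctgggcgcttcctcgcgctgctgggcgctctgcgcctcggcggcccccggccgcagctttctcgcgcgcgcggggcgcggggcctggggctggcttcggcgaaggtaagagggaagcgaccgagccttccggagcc
Kcnh1: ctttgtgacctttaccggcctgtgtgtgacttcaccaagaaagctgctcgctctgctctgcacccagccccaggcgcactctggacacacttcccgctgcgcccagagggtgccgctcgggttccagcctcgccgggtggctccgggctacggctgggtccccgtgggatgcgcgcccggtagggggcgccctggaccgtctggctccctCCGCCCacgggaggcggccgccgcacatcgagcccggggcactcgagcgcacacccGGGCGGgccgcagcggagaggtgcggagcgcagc

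The GC box was the most frequent of these motifs in the printed windows. It was found in the second Kcnip1 window, the first Cacnb2 window (2 overlapping matches), the Kcnd3 window and the Kcnh1 window (2 matches). GGGCGG occurred in 23 of the 41 windows of tested channel genes (56.1%) and in 33.1% of all 33365 distinct windows. The 41 belong to genes past the filter of 1 FPKM, and the full set was not filtered by level. The shares here and below are thus of unlike sets. CCAAT was matched 2 times in the second Kcnip1 window, and it was in 9 of the 41 (22%) and in 37.5% of all windows. TGACG was matched in the second Cacnb2 window, and it was in 8 of the 41 (19.5%) and in 21.2% of all windows. No printed window held TATAAA, which was in 1 of the 41 (2.44%) and in 14.2% of all windows. None held TGATGNAA either, which was in 2 of the 41 (4.88%) and in 3.98% of all windows. The GC content was 71.7% and 48.7% in the first and second Cacnb2 windows, 60.3% and 65.3% in those of Kcnip1, 77.7% for Kcnd3 and 72.7% for Kcnh1, beside a median of 51.7% over all windows. These matches are descriptions of the letters, not of bound factors.

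The pore-forming genes of voltage-gated calcium channels showed no call, 0 of 6 tested in edgeR, with 0 of 6 under an unadjusted p of 0.05. Over all tested features the shares were 7.98% and 25.7%, so few or none would be looked for among 6 genes. Cacna1h, a T-type gene, had the highest level: 28.6, 25.7 and 25.4 FPKM untreated and 21.7, 19.9 and 26.5 FPKM with uric acid. Uric acid library 3 lay among the untreated libraries (-0.23 ± 0.10, adjusted p = 0.211), and without it the value was -0.35 and passed (0.0312). With any other library left out Cacna1h was not called (edgeR adjusted p from 0.263 to 0.461). Cacna1d, an L-type gene of beta cells, stood at 13.3, 11.5 and 10 FPKM untreated and at 13, 11.1 and 13.7 FPKM with uric acid, overlapping groups (0.12 ± 0.11, 95% interval from -0.13 to 0.37, adjusted p = 0.536). Cacna1c, the other expressed L-type gene, ranged from 3.49 to 7.09 FPKM untreated and from 3 to 6.86 FPKM with uric acid. Its log2 fold change of -0.03 had an interval from -0.72 to 0.65, so even a change of 1.5-fold in either direction was not detectable. Cacna1a (P/Q-type) stood at 12.3 ± 1.32 and 12.9 ± 2.01 FPKM, Cacna1b (N-type) at 5.92 ± 0.803 and 5.84 ± 0.375 FPKM, and Cacna1g (T-type) at 5.25 ± 0.704 and 5.94 ± 1.18 FPKM. Cacna1c and Cacna1d together made up 22.4 to 27% of the summed pore-forming FPKM untreated and 25.6 to 28.5% with uric acid. Cacna1e, the R-type gene, was at a mean of 0.0545 FPKM and, like Cacna1f, Cacna1i and Cacna1s, was not tested.

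The remaining calcium channel auxiliary genes were not called. Cacna2d1, the alpha2delta protein that binds gabapentin, stood at 33.4, 25.2 and 19.1 FPKM untreated and at 26.4, 17.3 and 31.9 FPKM with uric acid. Its libraries spread nearly as widely within each group as over both (-0.04 ± 0.23, adjusted p = 0.939). Cacng7, of a family whose brain members accompany AMPA receptors, stood at 22.5 ± 0.907 and 25.4 ± 1.06 FPKM with no overlap (0.17 ± 0.07, adjusted p = 0.186). Cacng2, Cacng4, Cacng6, Cacna2d2 and Cacna2d3 had log2 fold changes between -0.15 and 0.06.

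Other voltage-gated potassium channel genes were spread around 0 with wide intervals. Kcnq1, whose gene is a diabetes risk locus, stood at 4.05 ± 0.351 and 4.49 ± 0.572 FPKM (0.15 ± 0.12, adjusted p = 0.49), and Kcnc1 at 3.88 ± 0.336 and 4.01 ± 0.963 FPKM (0.05 ± 0.17, 0.898). Kcnc2 had no overlap at 0.929 ± 0.118 and 1.24 ± 0.0889 FPKM but missed the threshold (0.41 ± 0.17, 0.174). Of the auxiliary Kv beta genes, Kcnab2 stood at 2.18 ± 0.475 and 2.92 ± 0.883 FPKM (0.43 ± 0.25, 0.323) and Kcnab3 at 1.26 ± 0.272 and 1.24 ± 0.151 FPKM (-0.03 ± 0.23, 0.954). Of 29 pore-forming genes of this family 16 were below the filter, among them all listed Kcna genes but Kcna4.

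No gene of the tandem-pore (Kcnk) family, whose channels carry background potassium currents, passed the test. Kcnk16, a channel largely confined to the pancreas in the body, stood at 12.2, 10.8 and 11.3 FPKM untreated and at 9.62, 9.41 and 9.14 FPKM with uric acid. The uric acid libraries were all lower (-0.28 ± 0.09, edgeR adjusted p = 0.0801), and with DESeq2 the gene passed (0.031). Kcnk1 was nearly constant within each group, at 15.7, 15.9 and 15.8 FPKM and at 13.9, 14.4 and 13.8 FPKM, and was lower by a factor of 0.887 (-0.17 ± 0.07, adjusted p = 0.165). Kcnk12 stood at 14.6, 13.4 and 12.8 FPKM and at 18.3, 20.8 and 13.8 FPKM, with uric acid library 3 inside the untreated range (0.37 ± 0.14, 0.14). Without that library the value was 0.52 and passed (0.0182). With any other library left out Kcnk12 was not called. Kcnk3, an acid-sensitive channel, stood at 9.16 ± 0.66 and 8.95 ± 0.525 FPKM (-0.04 ± 0.08, 0.83). Kcnk2 and Kcnk6 stood at -0.10 and -0.16 on the log2 fold change scale, and the 8 remaining listed genes had means of 0.00568 to 0.641 FPKM.

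Among inward rectifiers outside the KATP channel, Kcnj2 lay just outside the threshold. Kcnj2, a strong rectifier that holds the resting potential, stood at 1.64, 1.76 and 1.9 FPKM untreated and at 3, 2.49 and 2.75 FPKM with uric acid. The groups were well apart, by 1.56-fold (0.64 ± 0.17, edgeR adjusted p = 0.0511, beside 0.0467 for Kcnh1 just inside). It passed with DESeq2 (0.0171) and with counts divided by 4 (0.0472). Kcnj6 and Kcnj3, subunits of channels opened by G proteins, stood at 2.38 ± 0.563 and 2.07 ± 0.385 FPKM (-0.20 ± 0.20, 0.577) and at 3.18 ± 0.602 and 3.66 ± 1.35 FPKM (0.20 ± 0.28, 0.687). Kcnj12, the highest of this family, stood at 4.18 ± 0.225 and 3.66 ± 0.483 FPKM (-0.19 ± 0.14, 0.418).

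Calcium-activated potassium channel genes were low and not called. Kcnma1, the pore of the large-conductance (BK) channel, stood at 6.71, 6.32 and 4.45 FPKM untreated and at 5.36, 5.23 and 5.14 FPKM with uric acid (-0.15 ± 0.14, adjusted p = 0.524). Its beta subunits Kcnmb4 and Kcnmb2 stood at 6.53 ± 0.62 and 5.96 ± 0.866 FPKM (-0.13 ± 0.15, 0.625) and at 2.29 ± 0.484 and 2.63 ± 0.422 FPKM (0.20 ± 0.20, 0.569). Kcnn2, a small-conductance channel, stood at 1.47, 0.852 and 1.41 FPKM and at 1.61, 2.31 and 1.95 FPKM (0.65 ± 0.26, 0.158). Kcnn1 (0.873 FPKM), Kcnn3 (0.113 FPKM) and Kcnn4 (0.0205 FPKM) were below the filter.

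Voltage-gated sodium channels carry part of the action potential of rodent beta cells. Scn3a held most of the pore-forming message, with 16.2, 15.1 and 13.3 FPKM untreated and 17.8, 14.6 and 18.7 FPKM with uric acid, overlapping groups (0.20 ± 0.10, adjusted p = 0.267). Scn2a stood at 1.43, 1.16 and 1.11 FPKM and at 1.76, 1.53 and 1.9 FPKM (0.49 ± 0.14, edgeR adjusted p = 0.0629). All uric acid libraries of Scn2a were above all untreated ones, and it passed with DESeq2 (0.0156) and without uric acid library 2 (0.0445). With any other library left out Scn2a was not called. Scn8a stood at 3.69 ± 0.8 and 2.81 ± 0.643 FPKM (-0.39 ± 0.19, 0.235). Scn3b, a beta subunit gene whose protein modulates the gating of the pore, stood at 24.4 ± 1.06 and 27.4 ± 1.59 FPKM (0.17 ± 0.07, 0.166). Scn9a and Scn1a were at means of 0.206 and 0.193 FPKM.

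Trpm2, a calcium-permeable channel opened by ADP-ribose and oxidants, stood at 11.8, 12.5 and 11.8 FPKM untreated and at 11.1, 9.21 and 11.9 FPKM with uric acid (-0.17 ± 0.10, adjusted p = 0.325). Trpm5, a calcium-activated cation channel, stood at 1.35 ± 0.111 and 1.54 ± 0.0756 FPKM with no overlap (0.19 ± 0.15, 0.465). Trpm4, its near relative, had a mean of 0.345 FPKM and was not tested.

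Long channel messages moved with the library within both groups. Transcript length, worked out from each feature's counts and FPKM, had a median of 3637 bases for the 57 tested channel genes and 2219 bases for all tested features, and 10 of the 57 were over 6000 bases: Cacna1a, Cacna1b, Cacna1c, Cacna1d, Cacna1g, Cacna1h, Scn2a, Scn3a, Scn8a and Kcnd3. Untreated library 1 had the highest untreated value for 10 of these 10 and untreated library 3 the lowest for 9. Uric acid library 2 had the lowest uric acid value for 9 and uric acid library 3 the highest for 9. Of the 47 shorter genes, untreated library 1 was the highest of its group for 25 and uric acid library 2 the lowest of its group for 24. Across the 57 genes, which share libraries and are not independent, the Pearson correlation of log2 length with the gene's log2 deviation was 0.467 in untreated library 1 and -0.416 in uric acid library 2, and lay between -0.172 and 0.235 in the other 4 libraries. The same order was present over the whole table: the 750 tested features over 6000 bases had median log2 deviations of 0.152, 0.0223 and -0.0873 in untreated libraries 1, 2 and 3 and of 0.00143, -0.178 and 0.0986 in uric acid libraries 1, 2 and 3. The 1917 shortest tested features had -0.076, 0.00392 and 0.0807 untreated and -0.0129, 0.109 and -0.0569 with uric acid.

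**Figure D4:**
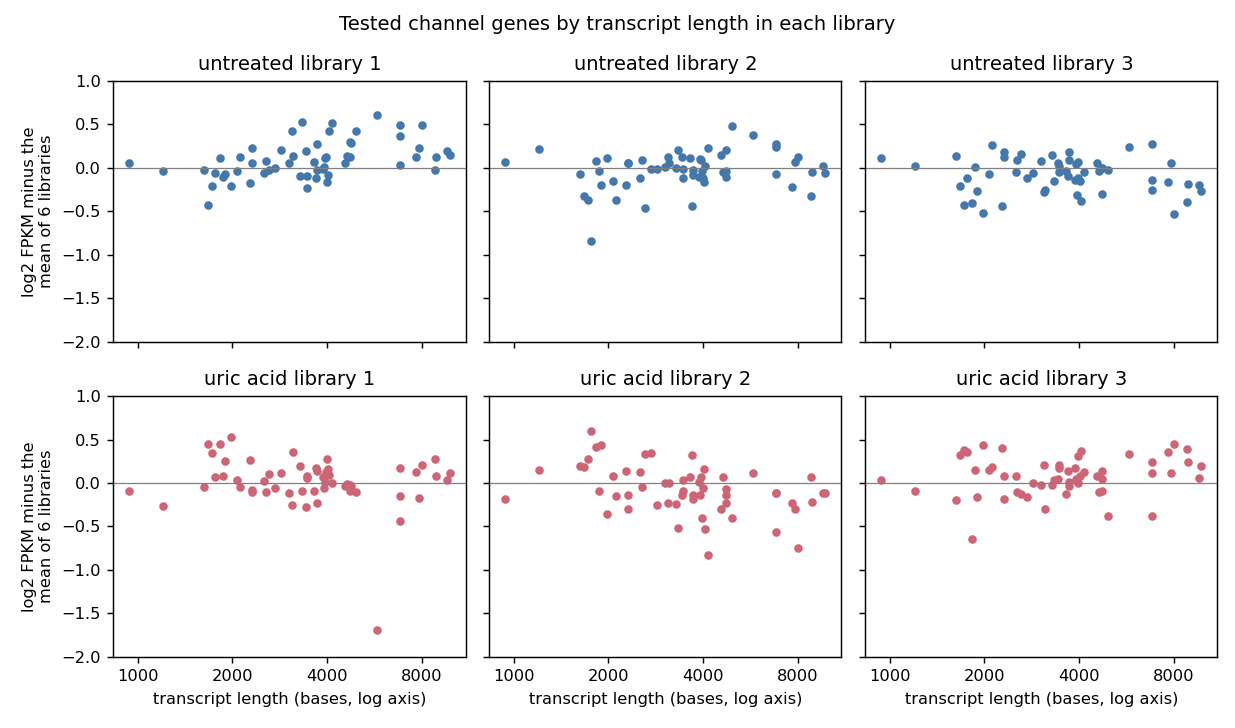
Log2 FPKM minus the mean of the 6 libraries (y axis) against transcript length in bases (x axis, log scale) for the 57 tested channel genes, 1 panel per library. Long messages lie mostly above 0 in untreated library 1 (r = 0.467) and mostly below 0 in uric acid library 2 (r = -0.416).

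With each library's trend on length removed through offsets, an alternative chosen after the data were seen, 7 channel genes were higher and 2 lower, 12.3% and 3.51% of those tested. In that fit 6.73% of all tested features were higher and 5.68% lower. Cacna1d then had a log2 fold change of 0.19 (adjusted p = 0.0409), Scn3a of 0.23 (0.0269), Scn2a of 0.55 (0.0101), Kcnj2 of 0.62 (0.0459) and Kcnk16 of -0.30 (0.0414), all past the threshold. Kcnip1, Cacnb2, Kcnh2 and Kcnh1 stayed called, and Kcnd3 did not (-0.56, 0.0537). Kcnj11 and Abcc8 were not called. The offsets were estimated from the same libraries and their error is not part of these p-values. What the length trend comes from was not tested.

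**Figure D5:**
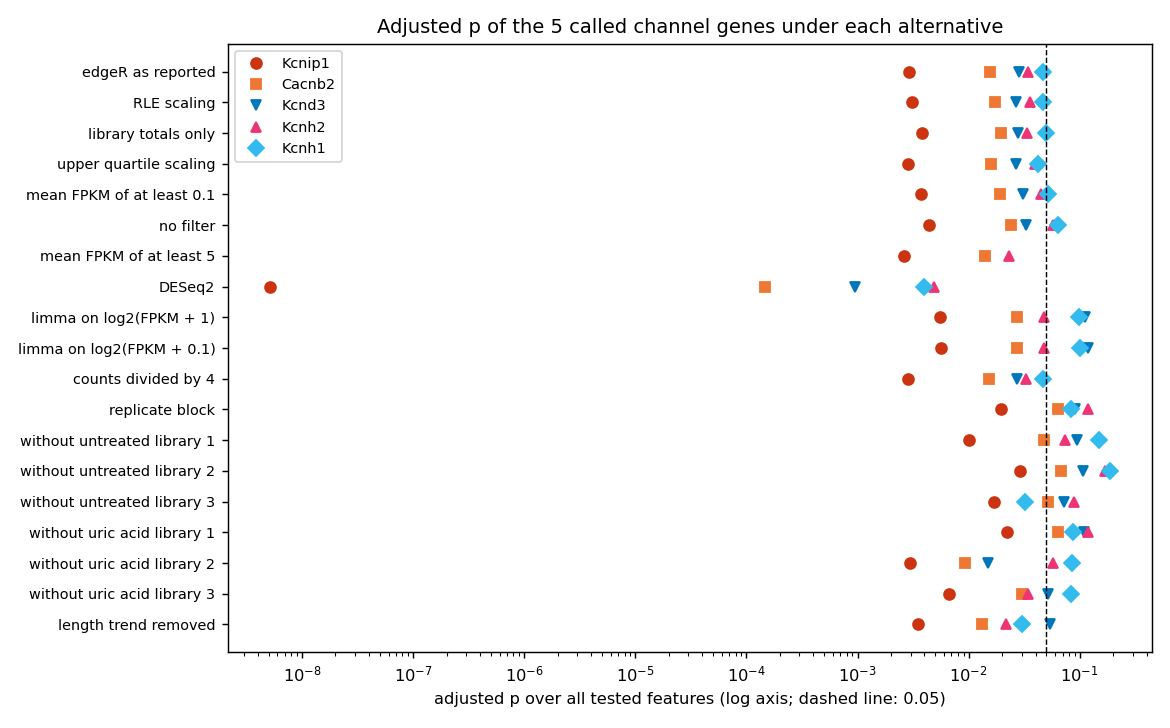
Adjusted p (x axis, log scale) of the 5 called channel genes in the edgeR fit as reported and under each alternative (rows); the dashed line is 0.05. Kcnip1 lies left of the line in every row, while Kcnh2, Kcnd3 and Kcnh1 cross it in most fits with 1 library left out.

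Genes that work beside these channels were read from 7 lists of channel partners, other cation channels, chloride channels, pumps and exchangers, store calcium proteins and gap junctions. Of their 114 genes 106 were listed, and of 80 tested features 1 was higher and 1 lower, with a median log2 fold change of 0.00. Over all tested features 4.99% were higher and 2.99% lower. Lrrc8d, a subunit of the volume-regulated anion channel, rose from 14.9 ± 0.94 to 20.7 ± 1.88 FPKM (0.47 ± 0.09, edgeR adjusted p = 0.0173). Letm1, a cation exchanger of the inner mitochondrial membrane, fell from 18.3 ± 2.65 to 12.7 ± 0.888 FPKM (-0.54 ± 0.11, 0.0202). None of the 9 tested features for calcium channel inhibitors and traffic partners was called, nor of the 10 for potassium and sodium channel partners, the 16 for other cation channels, the 19 for pumps and exchangers or the 3 for gap junctions. Rem2, which inhibits calcium channels by binding their beta subunits, stood at 9.07 ± 0.967 and 7.83 ± 0.499 FPKM (-0.21, adjusted p = 0.283), Dpp6, an auxiliary protein of Kv4 channels, at 47.8 ± 0.538 and 55.8 ± 3.28 FPKM (0.22, 0.0672), and the pacemaker channel gene Hcn4 at 23.8 ± 0.613 and 27.8 ± 2.04 FPKM (0.22, 0.0925). Rem2, Dpp6 and Hcn4 were named after their values were seen.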

How the data were processed

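The series holds RNA sequencing of INS-1E cells, 6 libraries in all. Per the labels' protocols, polyadenylated RNA was copied with a dUTP-marked second strand and read in pairs of 150 bases. Per the submitters' processing notes, the tools included StringTie 1.3.4d, HISAT2 2.0.4, cutadapt 1.9, edgeR and DESeq2, without roles; the genome build and the counting strand are not given in the sources used here. The deposited FPKM values are the authors' fragments per kilobase, scaled to library depth. The deposited count columns are the authors' estimated counts, whole numbers as deposited. Their make-up was read from 4822 small-RNA values of 1 to 40 counts. At 75 aligned bases a count, 60.9% of these values came to a whole number of bases (within 0.05), beside 10% by chance. A full pair of reads would then add 4.

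Features whose FPKM averaged 1 or more were tested in edgeR 4.0.16 (R 4.3.3; quasi-likelihood F test, TMM scaling, no covariate), with Benjamini-Hochberg adjustment. The common biological coefficient of variation was 0.127 and standard errors of log2 fold changes had a median of 0.113. Tested on simulated data for this comparison (12460 features, 200 changed), 53% of log2 changes of 0.5 and 88% of those of 1 were recovered, with 3 false calls. The simulated spread depended on a feature's level only and held no length trend, so these figures may flatter the real libraries. Standard errors are the log2 fold change divided by the root of the F statistic. An exact permutation test of 3 libraries against 3 cannot go below 0.1, so none was used.

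Channel genes and lists were chosen with earlier results of these data known. Named genes were the KATP subunits, every called gene, the highest genes of each family, a fixed set of beta-cell channels, genes with an unadjusted p under 0.05, and called partners. Some genes given by level only were added after their values were seen. Alternatives were scaling, filters, DESeq2 1.42.0, limma 3.58.1, counts divided by 4, a replicate block, each library left out and, added after the data were seen, removal of a length trend. Of the genes in that set or the KATP family, Kcnj8, Kcnb2 and Kcnd2 were not analysed here. Results of 4 tested channel genes, included in the counts, are not reported here.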

Additional observations from a re-analysis of the deposited data

How the results depend on the processing

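The numbers of channel genes higher and lower were 3 and 2. They stayed at 3 and 2 with RLE scaling, library totals or upper quartile scaling. DESeq2 gave 5 and 3, the replicate block 1 and 0, and removal of the length trend 7 and 2. Counts divided by 4 gave 4 and 2, and no filter gave 2 and 1. The number lower was 1 with a filter of 0.1 FPKM, 0 with a filter of 5 FPKM and 0 with limma at either pseudocount. With 1 library left out, the number higher was 1 to 4 and the number lower 0 to 1. None of the 54 genes below the filter was called when it was loosened.

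Over all features, 622 were higher and 372 lower. DESeq2 gave 968 and 785, the replicate block 223 and 99, and removal of the length trend 839 and 708. Leaving out 1 library gave 165 to 707 higher and 66 to 466 lower. The block and the omission of a library leave fewer degrees of freedom for the spread. What caused any of these shifts was not tested. Partner genes numbered 1 higher and 1 lower, 4 and 3 with DESeq2, 0 and 0 with the replicate block, 5 and 4 with the length trend removed, and 0 to 4 and 0 to 2 with 1 library left out.

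Whether equal replicate numbers pair the libraries is not given in the labels. Deviations from the group means correlated at 0.0684, -0.0492 and -0.19 between libraries numbered 1, 2 and 3. Untreated library 3 correlated best with uric acid library 2 (0.259). With 3 libraries a group and the length trend in them, these correlations cannot decide whether the libraries were paired. With the replicate block, of the 5 calls only Kcnip1 held. Of the 40 named genes, 9 of the recomputed values changed sign, all in genes that were not called. Removal of the length trend moved Cacna1c to 0.01. With 1 library left out Cacna1c ranged from -0.28 to 0.24, Cacna2d1 from -0.24 to 0.18, Cacna1a from -0.03 to 0.18, Kcnc1 from -0.11 to 0.22 and Kcnk3 from -0.08 to 0.02. Genes near 1 FPKM rest on fewer reads than genes of like length at higher FPKM.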
